A study of Mus musculus with 48 samples.

Results

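The cytosolic ribosomal proteins are the structural proteins of the ribosome that works outside the mitochondrion. On the array they were taken by name, as the probes whose symbol begins with RPL or RPS and a number or is that of a stalk protein (RPLP0, RPLP1, RPLP2), leaving out the RPS6K kinases. This rule found 59 of 24613 probes, under 43 of 18991 symbols, and no probe of a stalk protein. Of the 59 probes, 31 belonged to large subunit proteins and 20 to small subunit proteins. The other 8 carried the symbol of a paralog (RPL3L, RPL7L1, RPL22L1, RPL39L, RPS27L, RPS4Y2) or of RPS19BP1, which binds RPS19.

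RNA came from mouse 3T3-L1 cells, an embryonic fibroblast line that can be turned into adipocytes in culture. The cells were transfected with a pool of siRNAs against PPARg, or with a pool of non-targeting siRNAs (control siRNA), at 50 nM. Confluent cells of both groups were kept for 48 hours with dexamethasone at 0.25 µM and the phosphodiesterase inhibitor IBMX at 0.5 mM. Insulin (5 µg/ml) and the PPARg agonist rosiglitazone (1 µM) then took their place for another 48 hours. Days were counted from the addition of rosiglitazone, so day -2 preceded the hormones and day 0 followed IBMX and dexamethasone. Each siRNA was sampled on 8 days (-2 and 0 to 6) in 3 biological replicates, which gave 24 arrays for control siRNA and 24 for PPARg siRNA. PPARg is reduced and not deleted in this model, all cells belong to 1 line, and there were no cells without siRNA.

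A ribosome joins a small subunit, which reads the mRNA, with a large subunit, which forms the peptide bond. Each holds ribosomal RNA and many proteins that are needed in equal numbers, and the ribosomal protein mRNAs are among the most abundant of a growing cell. Most of these mRNAs start with a stretch of pyrimidines, the 5′ terminal oligopyrimidine tract, through which their translation is held back when growth signals are low. Ribosome biogenesis factors, which assemble the subunits in the nucleolus, are a separate group of genes and do not stay in the finished ribosome.

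The knockdown was visible in the targeted gene. The PPARG probe that was above background on all 48 arrays was lower under PPARg siRNA by a mean log2 difference of -2.34 over the 8 days (limma, SE 0.04, adjusted p = 9.48e-34). Another PPARG probe was above background on 24 control and 5 PPARg siRNA arrays, and the last on 8 and 0, so neither gives an exact fold. The summed deposited intensity of 8 adipocyte marker probes on day 6 was 105482 to 157653 under control siRNA and 21456 to 33851 under PPARg siRNA. Fibroblast marker probes (8 of 8) were above background, whereas 0 of 8 macrophage and 0 of 4 endothelial probes were above background on any array. Replicate 3 of both siRNAs stood apart: 33.4% to 35.4% of its probes were above background, against 36.8% to 40.4% in replicates 1 and 2.

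Members spanned nearly the whole range of the array. Of the 59 probes, 16 had a mean deposited intensity over 30000, a level that 75 probes of the entire array reached. Another 21 lay between 1000 and 30000 and 22 lay under 1000. The brightest core members were RPL41 (50924), RPL37 (49058) and RPS14 (48422). The dimmest were RPL17 (81.9), a probe of RPS18 (109.1) and a second probe of RPL18 (112.8), none of which was above background on any array. In all, 40 probes were above background on all 48 arrays, 51 on at least 3 and 7 on none. The 7 were those of RPL17, RPL3L, RPL39L and RPS4Y2, both RPS18 probes and the second RPL18 probe, and nothing about expression follows from them.

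The first bases of the genes are shown because members that moved together in these cells, and the few that did not, can be compared there. RefSeq start sites (build GRCm38.p6) were found for 32 of the 43 symbols, with 40 starts in all. In each the 15 bases before and the 15 bases from the start were searched on the transcribed strand for a run of at least 6 bases that were each C or T. The windows below are of some genes that were highest on day 0 under control siRNA (Rpl13a to Rps24) and then of Rpl38 and Rps19, which followed another course. Other genes highest on day 0 are not shown. Among them Rpl14, Rpl34, Rpl35, Rps2 and Rps21 had a run over a start, and Rpl4, Rpl23, Rpl26, Rps3, Rps3a and Rps15 had none there. The windows shown therefore do not give the share with a run. Capitals mark the run that covers the start or begins within the first 5 transcribed bases, or otherwise the longest run of at least 6.
Rpl13a, chr7:45128731-45128760, minus strand: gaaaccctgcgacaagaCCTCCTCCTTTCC
Rpl18, chr7:45718056-45718085, plus strand: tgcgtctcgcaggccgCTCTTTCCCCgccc
Rpl22, chr4:152324421-152324450, plus strand: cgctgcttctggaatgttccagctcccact
Rpl27a, chr7:109519180-109519209, plus strand: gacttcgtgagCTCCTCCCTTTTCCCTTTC
Rpl31, chr1:39367836-39367865, plus strand: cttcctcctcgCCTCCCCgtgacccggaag
Rpl37, chr15:5116598-5116627, plus strand: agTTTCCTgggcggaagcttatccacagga
Rps9, chr7:3704026-3704055, plus strand: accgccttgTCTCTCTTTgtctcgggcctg
Rps10, chr17:27635230-27635259, minus strand: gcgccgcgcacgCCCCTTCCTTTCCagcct
Rps24, chr14:24490663-24490692, plus strand: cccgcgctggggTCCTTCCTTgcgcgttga
Rpl38, chr11:114668565-114668594, plus strand: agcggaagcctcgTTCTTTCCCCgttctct
Rps19, chr7:24884577-24884606, plus strand: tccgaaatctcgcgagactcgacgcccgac
Rps19, chr7:24884898-24884927, plus strand: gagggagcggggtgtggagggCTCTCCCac

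A run that covered the start or began within the first 5 bases was present in 17 of 40 member starts (42.5%), against 4194 of 32851 starts of all genes (12.8%). Anywhere in the window, a pyrimidine run was present in 57.5% of member starts and 29.2% of all starts, and a run of A or G (a pyrimidine run on the opposite strand) in 7.5% and 32.4%. Rpl38 carried a run of 10 bases over its start, and none of the 3 annotated Rps19 starts had a run there. Rpl22, which rose on day 0, had none over a start either. Nor had Rpl37, which under control siRNA was called higher at its dim probes but not at its bright probe (0.17). Among symbols with a run the brightest probe differed between day 0 and day -2 by a median log2 of 0.40 (-0.39 to 1.33, n = 16) under control siRNA, and among those without by 0.29 (-0.039 to 1.13, n = 16), with 6 and 2 of these probes called higher. Under PPARg siRNA the medians were 0.37 and 0.24, with 5 and 4 called higher. The symbols with a run included RPS18, and those without included RPL3L and RPL39L, whose probes were never above background. Those without also included RPL7L1, RPS27L and RPS19BP1, and those with a run RPL22L1. The brightness of the probes was not taken into account, and whether a run goes with the rise was not tested. The runs are letters in annotated windows, and start sites were not measured in these cells.

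Most ribosomal protein mRNAs were highest on day 0, after IBMX and dexamethasone and before insulin and rosiglitazone. Under control siRNA the 59 probes lay a median of 0.32 higher on the log2 scale on day 0 than on day -2 (0.28, 0.29 and 0.41 in the 3 replicates), beside a median of 0.076 for all 24613 probes. Under PPARg siRNA the median was 0.35 (0.44, 0.30 and 0.40), beside 0.13 for all probes. Under control siRNA 15 of the 59 probes (25.4%) were called higher and 0 lower, where a call means a Bonferroni adjusted p over all probes of 0.05 or less, whereas 4.01% of all probes were called higher and 5.04% lower. Under PPARg siRNA 14 (23.7%) were called higher and 2 (3.39%) lower, beside 3.36% and 4.02% of all probes. The arrays give relative abundance per amount of RNA, so more cells of a kind and more mRNA per cell cannot be told apart.

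The rise was also seen in the members' share of each array's total, which is itself a scaling. Unscaled intensities did not all rise. Deposited RPL41 under PPARg siRNA was 55154, 61395 and 49779 on day -2 and 47826, 56635 and 52762 on day 0. The 59 probes took 4.23% to 4.90% of the summed deposited intensity on day -2 and 4.94% to 6.02% on day 0 under control siRNA. The ranges were 4.53% to 4.74% and 4.92% to 5.93% under PPARg siRNA, so the days did not overlap in either group. By day 6 the share was 4.05% to 4.43% and 4.08% to 5.01%. Of the 40 probes above background on all arrays, 33 (82.5%) had their highest control mean on day 0, as did 23.4% of the 7121 such probes of the whole array. The numbers were 34 (85%) and 23.9% under PPARg siRNA.

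**Figure D1:**
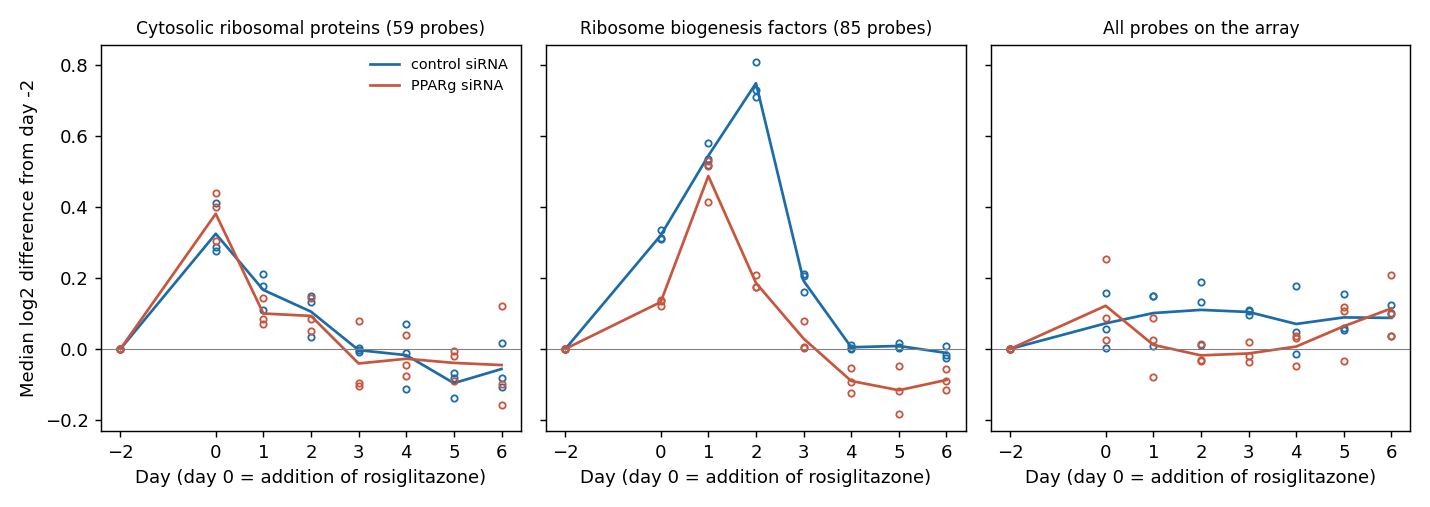
Median log2 difference from day -2 (y axis) by day (x axis) for the 59 ribosomal protein probes, 85 probes of ribosome biogenesis factors and all 24613 probes; lines are means of the 3 replicates and open points the replicates. The ribosomal proteins were highest on day 0 under both siRNAs (means 0.32 and 0.38), while the biogenesis factors reached 0.75 on day 2 under control siRNA and 0.49 on day 1 under PPARg siRNA.

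RPL22, a large subunit protein that also binds viral and cellular RNAs outside the ribosome, rose most among the large subunit probes above background on all arrays. Its normalised log2 intensity was 11.32, 11.35 and 11.13 on day -2 and 12.42, 12.41 and 12.34 on day 0 under control siRNA, a log2 difference of 1.13 (SE 0.11, adjusted p = 7.95e-08). Under PPARg siRNA it was 10.63, 10.51 and 10.87 on day -2 and 11.53, 11.77 and 12.08 on day 0, a difference of 1.12 (SE 0.11, adjusted p = 8.68e-08). Neither group overlapped between the days, and the PPARg siRNA arrays started lower, a difference that was not called on day -2.

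RPL31, which sits near the exit of the peptide tunnel, was at 11.81, 11.67 and 11.96 on day -2 and 12.64, 12.71 and 12.94 on day 0 under control siRNA. The difference was 0.95 (SE 0.08, adjusted p = 4.89e-10), and 0.86 under PPARg siRNA (SE 0.08, adjusted p = 8.27e-09). Both RPL13A probes, of a protein that also takes part in silencing inflammatory mRNAs, rose by 0.57 and 0.67 under control siRNA and by 0.66 and 0.66 under PPARg siRNA. Among the small subunit probes RPS15A rose most under control siRNA (1.33, SE 0.17, adjusted p = 9.93e-05). This probe was dim, with a mean deposited intensity of 225.8, and above background on 40 of 48 arrays. RPS10, at the entry of the mRNA channel, was the only probe over 30000 called under control siRNA (0.48, SE 0.08, adjusted p = 0.0144). RPS9, which helps set decoding accuracy, rose by 0.60 at the least bright of its 3 probes (adjusted p = 3.89e-06).

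The called probes were not the same in the 2 groups in every case, and the difference between siRNAs was called on this step for RPS19 alone (below). RPS3, a small subunit protein with a second role in DNA repair, was called under PPARg siRNA at both probes (0.50 and 0.58) and differed by 0.35 and 0.31 under control siRNA. Both RPL21 probes were called under control siRNA (0.91 and 0.88) and differed by 0.57 and 0.43 under PPARg siRNA. The direction of the median held under each scaling tried, but the number called did not. Scaling on the array median left 6 called higher and 0 lower under control siRNA, and 4 higher and 2 lower under PPARg siRNA. The number was 5, 4 and 10 under control siRNA without replicates 1, 2 and 3.

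The size of the day 0 difference varied with the brightness of the probe. The 16 probes over 30000 had a median of 0.17 under control siRNA and 1 was called, the 21 between 1000 and 30000 had a median of 0.46 with 9 called, and the 22 under 1000, which include the 7 never above background, had a median of 0.35 with 5 called. Under PPARg siRNA the medians were 0.27, 0.50 and 0.31.

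**Figure D2:**
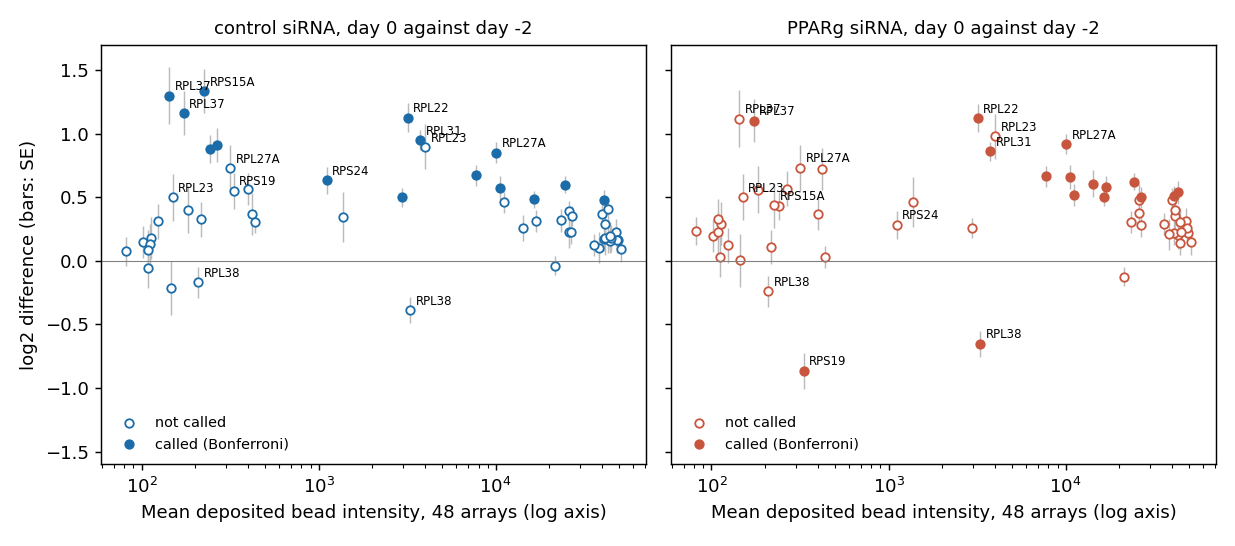
Log2 difference of day 0 against day -2 (y axis, bars: SE) for each of the 59 probes against its mean deposited bead intensity over 48 arrays (x axis, log scale), with control siRNA left and PPARg siRNA right; filled points were called. The 16 probes over 30000 lay between 0.09 and 0.48 under control siRNA, whereas dimmer probes reached 1.33, and the RPL38 probes lay below 0 in both panels.

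Probes of the same gene also differed. Several probes, 28 in all, stood for 12 of the 43 symbols, and in 5 of them the probes differed in their day 0 call under control siRNA. For RPL18 and RPL7L1 the probe without a call was above background on 0 and 2 of 48 arrays and so tells nothing, which leaves RPL27A, RPL37 and RPS9. RPL27A, a large subunit protein, differed by 0.17 (SE 0.11) at a probe of mean intensity 43209, by 0.85 (SE 0.08, adjusted p = 1.9e-08) at one of 10107 and by 0.73 (SE 0.18) at one of 317.4. On the middle probe the control arrays were at 13.21, 13.18 and 13.18 on day -2 and 14.02, 14.02 and 14.09 on day 0. RPL37, a zinc finger protein of the large subunit, differed by 0.17 (SE 0.09) at its bright probe (49058) and by 1.16 and 1.30 at its dim probes (173.5 and 143.1), both of which were called. Only 22 and 8 of the 48 arrays had these dim probes above background, so the size of their differences is uncertain. RPL23, a large subunit protein that can bind MDM2, differed by 0.22, 0.90 and 0.50 at probes of 47850, 3993 and 150.2, none called, the last above background on 7 arrays.

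**Figure D3:**
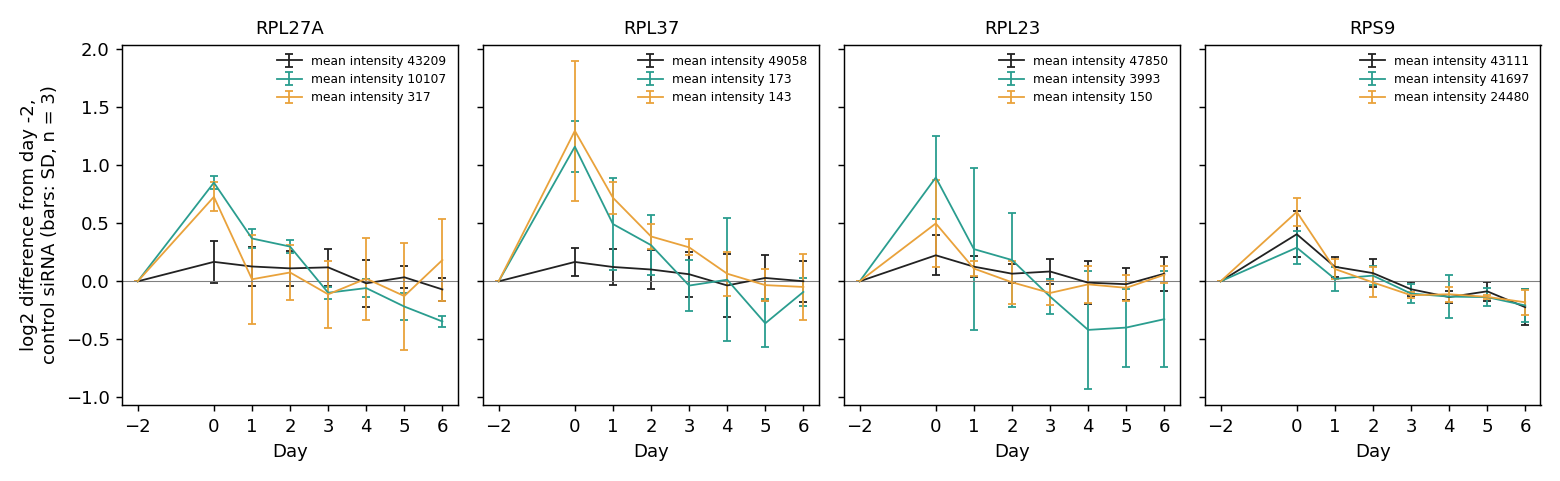
Log2 difference from day -2 under control siRNA (y axis) by day (x axis) for the 3 probes each of RPL27A, RPL37, RPL23 and RPS9, with the mean deposited intensity of each probe in the key and bars of 1 SD (n = 3). The brightest RPL27A, RPL37 and RPL23 probes moved by 0.17 to 0.22 on day 0, the dimmer ones by 0.50 to 1.30, of which the dimmest of RPL37 and RPL23 were above background on 8 and 7 of 48 arrays.

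What part the brightness plays in these differences was not tested. The highest member intensity on any array was 62832 and the highest of all probes 67066. The probe sequences were not used here, and RefSeq lists 141 pseudogenes named after 28 of the 43 symbols, up to 24 for 1 gene (Rpl31). Probes of 1 symbol may therefore read different transcripts or copies, and the members with such copies are uncertain to that extent.

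After day 0 the levels returned. From day 0 to day 2 the median of the 59 probes was -0.23 under control siRNA and -0.32 under PPARg siRNA, beside 0.041 and -0.15 for all probes. Under control siRNA 4 probes (6.78%) were called lower, beside 5.81% of all probes, and 5 (8.47%) higher, beside 6.55%. The 4 were RPL22 (-0.79, SE 0.11), RPL31 (-0.76, SE 0.08), RPS9 (-0.61, SE 0.07) and RPL27A (-0.55, SE 0.08). Under PPARg siRNA RPL31, RPS9 and RPL18 were called lower (-0.60, -0.55 and -0.42; 5.08% of members, 1.97% of all probes) and RPS19 higher (1.42; 1.69% of members, 3.1% of all probes). From day 2 to day 3, 6 probes (10.2%) were called lower under control siRNA, beside 3.92% of all probes, and 0 higher, beside 4.53%. Under PPARg siRNA RPS19 was called lower on that step (-0.86; 1.69%, beside 0.999% of all probes), and 0 members higher, beside 0.902%. The 6 control probes included RPS24 (-0.69) and RPL31 (-0.45) as well as RPL29 (-0.78), whose protein is among the smaller ones of the large subunit. The shares of all probes on these steps count 13564 of 24613 that were never above background, against 7 of the 59 members. Whether members were called more often than well detected probes on these steps was not tested. Between days 3 and 6 limma called 0 probes under either siRNA, beside 2.53% and 1.37% of all probes. At an unadjusted p under 0.05 there were 12 and 12, and with Benjamini-Hochberg adjustment 5 and 4. The shares of all probes at these 2 looser thresholds are not given here, so these counts show no change particular to the members.

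The net change over the course was small for most members. Against day -2, day 6 of the control cells differed by a median of -0.074, beside 0.095 for all probes, and that of the PPARg siRNA cells by -0.051. Under control siRNA RPS19 (1.67, SE 0.14) and RPS15A (1.00, SE 0.17, adjusted p = 0.0347) were called higher (3.39% of members, 4.11% of all probes) and RPS24 (-0.64, SE 0.11, adjusted p = 0.0239) lower (1.69%, beside 2.14%). The RPS15A call was lost with quantile normalization, with scaling on the median and without replicate 1 or 2 (adjusted p = 1 in each). The RPS24 call was lost with scaling on the median (adjusted p = 0.233) and without replicate 1, 2 or 3 (adjusted p = 1, 0.536 and 0.244). Under PPARg siRNA RPL22 was higher (1.05, SE 0.11) and RPL38 lower (-0.69, SE 0.10), beside 2.49% and 1.92% of all probes. An F-test over the 8 days called 25 of the 59 probes under control siRNA and 18 under PPARg siRNA, beside 23.5% and 16.5% of all probes. Of the 59, 17 were called under both. All probes include 13564 of 24613 that were never above background, against 7 of the 59 members. Among the 9217 probes above background on 24 or more arrays, 5213 were called under control siRNA and 3739 under PPARg siRNA. The members thus did not change more often than well detected probes.

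A few members followed another course, low on day 0 or highest on day 1 or 2. RPL38, a large subunit protein known for its part in the translation of Hox mRNAs, was at 11.83, 11.69 and 11.41 on day -2 under control siRNA. It was at 11.38, 11.41 and 10.98 on day 0 and at 12.34, 12.42 and 12.07 on day 1. Every replicate was lowest on day 0 and highest on day 1 among these 3 days. From day 0 to day 2 it rose by 0.88 (SE 0.10, adjusted p = 3.81e-06), and its second, dimmer probe by 0.92 (SE 0.12, adjusted p = 0.000134). Under PPARg siRNA it fell by 0.65 on day 0 (SE 0.10, adjusted p = 0.00396) and was at 12.15, 12.16 and 11.97 on day 1.

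RPL29 rose from 6.79 ± 0.18 (SD, n = 3) on day -2 to 7.76 ± 0.21 on day 2 under control siRNA and was at 6.98 ± 0.24 on day 2 under PPARg siRNA. RPL7L1, a paralog of RPL7, and RPS19BP1 had the same shape. In control cells RPL7L1 averaged 11.14 ± 0.028 (SD, n = 3) before the hormones, then 11.64 ± 0.064, 12.21 ± 0.071 and 11.34 ± 0.19 at days 0, 2 and 3. RPS19BP1, a nucleolar protein also known as a regulator of the deacetylase SIRT1, was at 8.25 ± 0.12, 8.56 ± 0.084, 9.27 ± 0.14 and 8.45 ± 0.25 on the same days. Both were called from day 0 to day 2 (0.57 and 0.70) and again from day 2 to day 3 (-0.87 and -0.82).

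**Figure D4:**
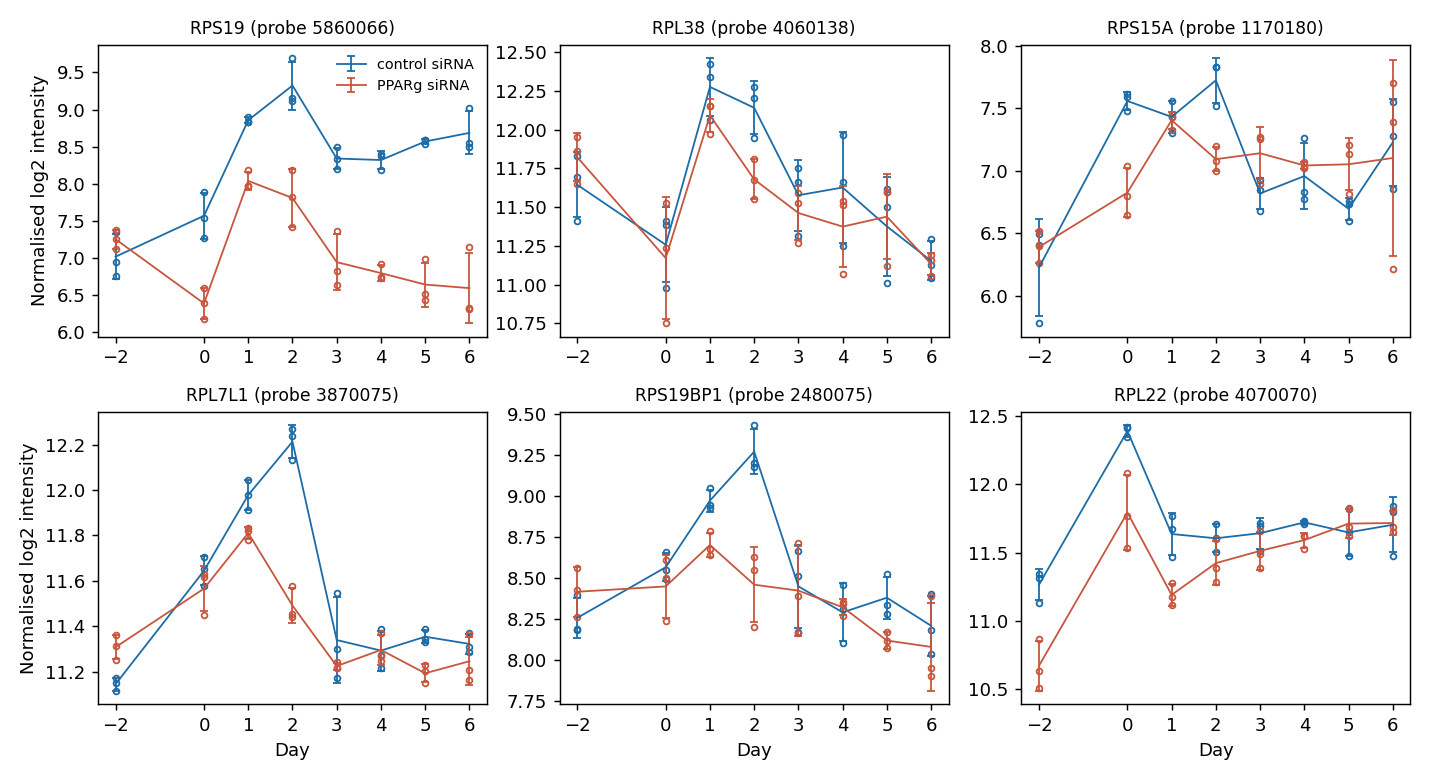
Normalised log2 intensity (y axes, each with its own range) by day (x axis) of 6 probes under control siRNA and PPARg siRNA; lines are means, bars 1 SD and open points the 3 replicates. RPS19 separated from day 0 on and stayed apart, RPL7L1 and RPS19BP1 differed on day 2, and RPL22 was lower under PPARg siRNA on the first days and met the control by day 5.

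The median of the ribosome biogenesis factors was highest after day 0 under both siRNAs, and that of the translation factors under control siRNA. Against day -2 the translation factor median was 0.16 on day 0 and 0.28 on day 2 under control siRNA. Under PPARg siRNA it was 0.14 on day 0 and 0.17 on day 1. Single translation factors rose on day 0 like the members, such as EEF1B2 under PPARg siRNA (0.87 and 0.83, both called). Among 85 probes of ribosome biogenesis factors, 14 were called higher and 0 lower on day 0 under control siRNA (median 0.32). From day 0 to day 2, 27 of the 85 were called higher and 0 lower (median 0.41). Of all probes, 4.01% were called higher and 5.04% lower on the first step, and 6.55% and 5.81% on the second. MRTO4 (1.20), NOLA2 (1.19), NOL5A (1.12) and LTV1 (1.07) rose most on the second step. Then 39 of the 85 were called lower from day 2 to day 3 (median -0.62), beside 3.92% of all probes. Of 69 translation factor probes 7 were called higher and 1 lower on day 0, and 11 higher and 10 lower from day 0 to day 2. On that step EIF5A rose at 3 probes (1.46, 1.35 and 1.05) and EEF1E1 by 1.14. EEF2 fell at 3 probes (-0.86, -0.82 and -0.63), of which the first and second had been called higher on day 0 (0.54 and 0.72). EEF2, the elongation factor that moves the ribosome along the mRNA, was picked out after its values were seen.

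GNB2L1 (RACK1), a small subunit protein that the name rule leaves out, differed by 0.93 on day 0 under PPARg siRNA (SE 0.19, adjusted p = 0.385) and was not called. Genes of DNA replication went the other way on day 0 under control siRNA, with 0 of 35 probes called higher and 9 lower (median -0.41). Known glucocorticoid targets rose, with 10 of 13 probes called higher (median 1.32). Under PPARg siRNA the DNA replication probes fell less on day 0. Their median against day -2 was -0.088, -0.062 and -0.25 in the 3 replicates, and -0.43, -0.47 and -0.42 under control siRNA. What part proliferation or the hormones play in the members' rise was not tested.

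PPARg siRNA changed few ribosomal protein mRNAs. Averaged over the 8 days, 3 of the 59 probes (5.08%) were called, all lower, whereas 13.1% of all probes were called (6.37% higher, 6.74% lower). The median difference of the members was -0.030, and that of all probes -0.032. By contrast, 52 of 99 probes of mitochondrial ribosomal proteins were called lower and 0 higher (median -0.18), and 15 of 85 ribosome biogenesis probes lower and 0 higher (median -0.070). Among the latter NOL6 (-0.54), MYC (-0.49) and IMP4 (-0.41 and -0.40) fell most. MYC is on this list although it is a transcription factor and not an assembly factor. Of the translation factors EIF3H (0.25) and EIF2S2 (0.21) rose and EIF4EBP1 (-0.24) fell. On single days limma called 0, 2, 1, 5, 1, 1, 1 and 1 members on days -2, 0, 1, 2, 3, 4, 5 and 6, all lower. The share of all probes called lower on these days was 0.674%, 1.37%, 1.49%, 4.18%, 2.29%, 2.13%, 2.68% and 3.09%.

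**Figure D5:**
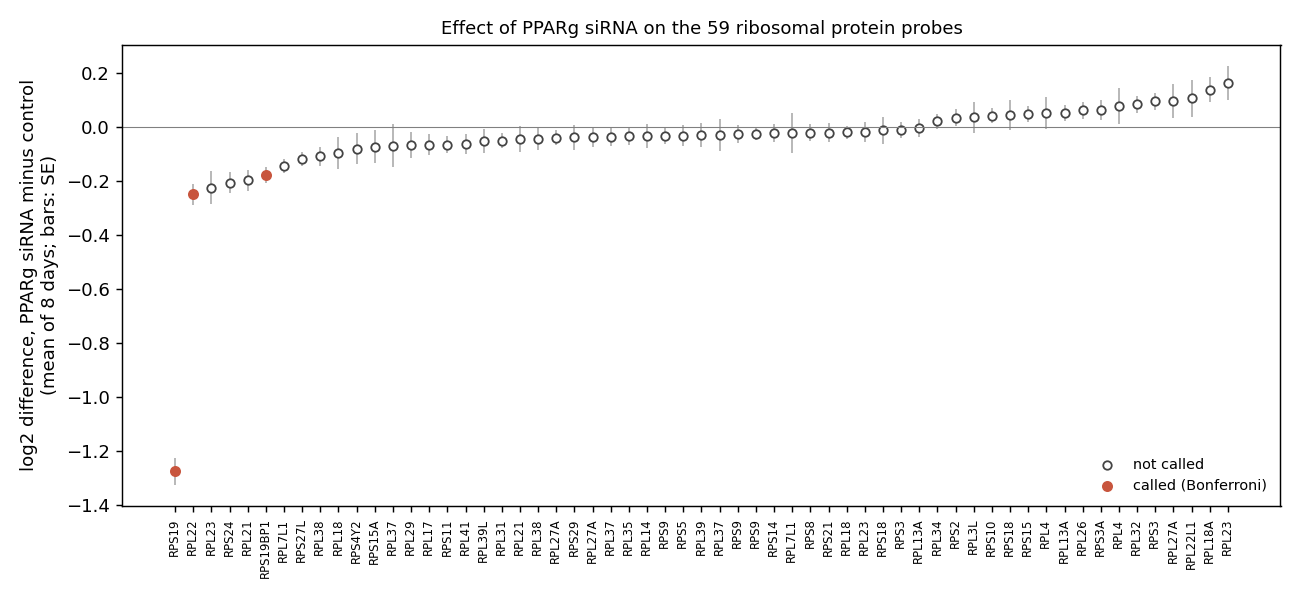
Log2 difference between PPARg siRNA and control siRNA averaged over 8 days (y axis, bars: SE) for the 59 probes in order of size (x axis). RPS19 lay at -1.28, RPL22 and RPS19BP1 were the other called probes (-0.25 and -0.18), and all others lay between -0.23 and 0.16.

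RPS19, a small subunit protein needed for the maturation of that subunit and mutated in Diamond-Blackfan anaemia, was the exception. Before the hormones its log2 intensity was 6.95, 6.76 and 7.35 with control siRNA, against 7.12, 7.38 and 7.26 with PPARg siRNA, so the groups overlapped. By day 0 the controls had reached 7.27, 7.54 and 7.90 while the knockdown arrays stood at 6.59, 6.18 and 6.40. On day 2 the values were 9.12, 9.16 and 9.70 against 7.82, 7.42 and 8.19. Day 6 gave 8.54, 8.50 and 9.02 against 6.33, 6.31 and 7.14, and there was no overlap on any of these later days. The mean difference over the 8 days was -1.28 (SE 0.05, adjusted p = 8.49e-21), and it was -1.18, -1.51 and -2.09 on days 0, 2 and 6. RPS19 was called on each day from 0 to 6, with the largest adjusted p on day 1 (-0.82, adjusted p = 0.0287). That day 1 call was lost with scaling on the 90th to 99th percentile or the median (adjusted p = 0.193 and 0.0721) and without replicate 1, 2 or 3 (adjusted p = 1, 1 and 0.116).

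The 2 siRNAs also gave RPS19 different courses. From day -2 to day 0 it changed by 0.55 under control siRNA and by -0.87 under PPARg siRNA, a difference of -1.42 (SE 0.20, adjusted p = 0.000503) that was not called without replicate 2 (-1.13, adjusted p = 1). From day -2 to day 6 the difference was -2.33 (SE 0.20, adjusted p = 1.39e-09). In both groups it was high on days 1 and 2, and the rise from day 0 to day 2 was 1.75 and 1.42. A single probe of mean intensity 331.5, above background on 47 of 48 arrays, stands for this gene. RefSeq lists 13 pseudogenes named after it, more than for any member but Rpl31 and Rpl21. The nearest protein-coding genes in RefSeq's order are Dmrtc2 on 1 side and Cd79a and Arhgef1 on the other. DMRTC2 was lower under PPARg siRNA (-0.68, SE 0.08, adjusted p = 5.53e-06) at a probe above background on 2 of 48 arrays, and the 3 ARHGEF1 probes differed by -0.087 to 0.056, none called. Whether the RPS19 probe reads another transcript was not tested.

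The other called members differed by less. RPL22 averaged -0.25 (SE 0.04, adjusted p = 0.00503) and RPS19BP1 -0.18 (SE 0.03, adjusted p = 0.03). Both calls were lost with quantile normalization (adjusted p = 0.11 and 0.315), with scaling on the median and with scaling on the 90th to 99th percentile. When a replicate was left out, 1 to 2 members in place of 3 were called for the mean effect. RPS19 was always among them, so at least 1 of these calls was lost each time. On day 2 RPS19BP1 differed by -0.81, RPL29 by -0.78, RPL7L1 by -0.72 and 1 of the RPL21 probes by -0.65. RPS24, mutated in the same anaemia, differed by -0.85 on day 0 (SE 0.11, adjusted p = 6.44e-05), where the control arrays were at 10.96, 10.97 and 10.54 and the PPARg siRNA arrays at 9.92, 10.29 and 9.70. This call was lost without replicate 1 (-0.76, adjusted p = 0.995). On day 6 RPS24 was at 9.55 in both groups. The change of RPL7L1 and RPS19BP1 over time differed between siRNAs on the steps from day 0 to day 2 (-0.64 and -0.69) and from day 2 to day 3 (0.61 and 0.79). In place of 2 members on the first step, 0 were called with scaling on the median or without background correction and 1 with scaling on the 90th to 99th percentile. In place of 2 on the second step, 1 was called with scaling on the median. Of all probes, 0.662%, 4.12%, 1.51% and 2.99% were called for such a difference on the steps to day 0, 2 and 3 and over the whole course, and 1, 2, 2 and 1 members were.

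Paralogs and partners were compared with their core proteins where both were on the array. RPL22L1, whose protein can take the place of RPL22 in the ribosome, was higher on day 0 than on day -2 in 3 of 3 replicates under either siRNA (0.34 and 0.46, SE 0.20, not called). It averaged 10.63 in replicate 1, 10.71 in replicate 2 and 7.63 in replicate 3 over the 16 arrays of each. Replicate 3 spanned 7.19 to 8.33 and the others 10.26 to 11.38, so they did not overlap on any day or siRNA. The 3.08 between replicates was the largest among the members, whose median was 0.30, and 19 probes of the array differed as much or more. Both RPL4 probes (2.16 and 1.46) and the dimmest RPL27A probe (1.48) were also lower in replicate 3. The replicate number was a term of the fit, and RPL22L1 differed by 0.11 between siRNAs and was not called. RPS27L, a paralog of RPS27 induced by p53, was bright (21507) and highest on day 1 in both groups (14.72 ± 0.14 and 14.66 ± 0.11). It averaged -0.12 under PPARg siRNA, called only with Benjamini-Hochberg adjustment. RPL3L, known from muscle, RPL39L, known from testis, and RPS4Y2 were never above background, like the second RPL7L1 probe on all but 2 arrays.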

How the data were processed

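Total RNA was hybridised to Illumina mouse BeadChips. The authors deposited, per probe and array, the mean bead intensity from BeadStudio 3.3.7 without normalization, a detection fraction (1 minus the detection p-value) and how many beads were read. Rank-invariant scaling and batch removal in the study's methods are not in these values.

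Intensities were background corrected in limma 3.58.1 (R 4.3.3; normexp with detection p-values, offset 16) and each array was divided by its median ratio to the average array, using probes of stable rank (moved by less than 0.05) from the 50th to the 90th percentile (factors 0.730 to 1.58). Log2 values of 48 arrays were fitted with lmFit and eBayes, using 1 coefficient for each siRNA on each day and a block for replicate. Calls used a Bonferroni adjusted p of at most 0.05 over 24613 probes. Above background means a detection p under 0.01. Same-numbered control and PPARg siRNA arrays of a day deviated together (correlation 0.544 to 0.914 in 24 pairs, 10567 probes). Arrays of the same number on different days were not compared. Pairing within a day and a batch common to all arrays of a number therefore cannot be told apart. No 2 arrays were identical. The number of arrays and a median of 35 beads per probe limit the precision. On simulated data the fit recovered 128 of 200 changed probes for day 0 against day -2 under control siRNA (96 of 100 at a log2 size of 1) and 199 of 200 for the mean effect, with 0 false calls. For a difference between siRNAs on day 0 it recovered 82 of 200, with 2 of 100 at a log2 size of 0.5. The simulated noise was independent between arrays and the changed probes were above background on 24 or more arrays. Errors of scaling and dim probes were thus not covered.

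Members and gene lists were chosen with earlier results of these data known. Named are paralogs, the 5 (main comparisons) or 2 largest called changes per direction, the brightest and dimmest members and probes of 1 gene that disagree. Other settings were quantile, median and 90th to 99th percentile scaling, no background correction, offset 50, a detection filter, Benjamini-Hochberg, no block, an additive model and each replicate left out.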

Additional observations from a re-analysis of the deposited data

Results flagged for a closer look

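A difference between the siRNAs in the change over time, tested as an interaction in limma, was called for 3 members. RPS19 changed differently from day -2 to day 0 (-1.42, SE 0.20, adjusted p = 0.000503) and from day -2 to day 6 (-2.33, SE 0.20, adjusted p = 1.39e-09). RPL7L1 changed differently from day 0 to day 2 (-0.64, SE 0.11, adjusted p = 0.013) and from day 2 to day 3 (0.61, SE 0.11, adjusted p = 0.0374). RPS19BP1 did so on the same steps (-0.69, SE 0.12, adjusted p = 0.0466, and 0.79, SE 0.12, adjusted p = 0.00465). The RPS19 difference on day 0 was not called without replicate 2 (-1.13, adjusted p = 1). On the step from day 0 to day 2, 0 members in place of 2 were called with scaling on the median or without background correction, and 1 with scaling on the 90th to 99th percentile. From day 2 to day 3, 1 in place of 2 was called with scaling on the median. Over all steps there were 1 to 2 calls in place of 6 when a replicate was omitted. Values are the change under PPARg siRNA minus that under control siRNA.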

How the results depend on the processing

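The lower RPS19 under PPARg siRNA averaged over days stayed called, and the higher median of the members on day 0 kept its direction, under every setting run. For single named members, 394 values under other settings kept their status as called or not called, 104 lost a call, 3 gained one and 0 reversed. The 394 include paralog probes that were not called in the reported fit and so had no call to lose. The median mean effect of PPARg siRNA was 0.0044 with quantile normalization, -0.0081 with scaling on the 90th to 99th percentile, 0.0030 with scaling on the median and -0.0013 without background correction, so its sign depended on the scaling. Calls for that effect were 1 under each of these 3 scalings and under the additive model, and 5 among probes above background on 3 or more arrays. The median day 0 difference was 0.24 (control siRNA) and 0.19 (PPARg siRNA) with quantile normalization. Under PPARg siRNA it was 0.24 with scaling on the median and 0.24 without background correction, and 0.43 after the detection filter, and from day 0 to day 2 the median was -0.10, -0.17 and -0.23 with quantile, median scaling and no correction. Scaling on the median gave 6 calls on day 0 under either siRNA, 1 from day 0 to day 2 under PPARg siRNA, 1 on day 6 under control siRNA (median -0.19) and 3 for differences between siRNAs. Quantile and median scaling moved the median of all probes by -0.13 and -0.11 on day 0 under PPARg siRNA.

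With Benjamini-Hochberg adjustment the calls were 12 for the mean effect, 33 on single days and 17 for differences between siRNAs. For day 0, day 0 to 2 and day 6 they were 30, 34 and 10 under control siRNA and 36, 30 and 11 under PPARg siRNA. Over time they were 38 and 46 of 59 under control and PPARg siRNA, beside 9813 and 8876 of all 24613 probes. Of the 9217 probes above background on 24 or more arrays, 8064 and 7255 were called over time. The members were thus not called more often than well detected probes. For the other counts the share of all probes is not given here, so they show nothing particular to the members. With no replicate block the calls were 6 on single days, 9 over time under PPARg siRNA and 1 for differences. For day 0, day 0 to 2 and day 6 they were 7, 5 and 1 under control siRNA and 6, 1 and 1 under PPARg siRNA. The block is the fit reported, and no other count of calls moved by over 1.5 times.

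Leaving out each replicate in turn gave 1 to 2 calls for the mean effect (median -0.037 to -0.023), 8 to 11 on single days, 11 to 17 and 5 to 9 over time, and 1 to 2 for differences. Under control siRNA it gave 4 to 10 calls on day 0 (0.29 to 0.35), 3 to 6 from day 0 to 2 (-0.25 to -0.16) and 1 to 2 on day 6 (-0.088 to -0.035). Under PPARg siRNA these were 4 to 5 (0.30 to 0.39), 1 to 2 (-0.34 to -0.24) and 1 to 4 (-0.11 to 0.028). The cause was not tested where a setting changed a call, apart from fewer arrays giving fewer degrees of freedom. Dim probes have the least signal over background, and the 7 members never above it give no level.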
